A study of Homo sapiens with 4 samples.

Results

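The genes described here encode 10 brakes on T cell receptor signalling: CBL and CBLB, UBASH3A and UBASH3B, CSK, PTPN22, PTPN6 and PTPN2, and DGKA and DGKZ. They were taken by name, and every probe set that the platform annotation assigns to 1 of these symbols alone was used, which gave 31 of the 54675 probe sets on the array, for 10 of 19775 genes with a probe set of their own. Of these probe sets, 26 passed a filter on dim signals (a highest signal of at least 56.4 over the 4 arrays), and each of the 10 genes kept at least 1, among 13717 genes that passed. The cells were Jurkat, a long-established line from a human T cell leukaemia. One line carried a short hairpin RNA against IKKε, the IKBKE product, a kinase of the interferon and NF-κB pathways (the shIKKE line), and the other a control construct, named a vector in the titles and a control hairpin in the design text (the control line). Each line was stimulated for 3 h with 10 ng/ml PMA and 0.5 uM ionomycin, or received solvent. The 4 groups were thus the stimulated shIKKE line, the shIKKE line with solvent, the stimulated control line and the control line with solvent, with 1 array in each. The labels do not say whether either line was a clone or a pool, or whether the cultures were separate.

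When the T cell receptor is engaged, the kinase LCK phosphorylates the receptor chains, ZAP70 is recruited, and the adaptors LAT and SLP-76 (encoded by LCP2) assemble a complex in which phospholipase C gamma makes diacylglycerol and releases calcium. The brakes act at successive steps: CSK phosphorylates the inhibitory tyrosine of LCK, the phosphatases PTPN22, PTPN6 and PTPN2 remove activating phosphates, the UBASH3 and CBL proteins act on activated kinases and receptors, and the diacylglycerol kinases DGKA and DGKZ convert diacylglycerol to phosphatidic acid. PMA stands in for diacylglycerol and ionomycin lets calcium in, so the treatment enters the pathway below the receptor and below most of these brakes.

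Of the T cell markers, 11 of 11 passed the filter, and their summed signal lay between 72170 and 79280 on the 4 arrays, a sum in which CD3D and LCK are the brightest. Single markers differed more. CD2 read 353 and 500.3 in the stimulated and solvent shIKKE line, against 760.4 and 1975.5 in the control line. With solvent CD28 (log2 -0.99) and CD5 (-0.86) were also lower in the shIKKE line. Further probe sets gave -0.22 and -0.64 for CD28 and -0.15 for CD5. CD7 was higher in the shIKKE line with solvent (0.58, and 0.98 by a second probe set). Of the 11 markers, 7 were above 0 and 4 below in this comparison. Markers of other cells were summed over every listed gene with a probe set of its own, also those below the filter. The sums were 755 to 916 for B cells (6 of 7 listed genes, 4 past the filter) and 88.35 to 224 for myeloid cells (4 of 7, 2 past it). For natural killer cells they were 335 to 500.3 (6 of 6, 2 past it), and for erythroid and epithelial cells 218.5 to 440 (5 of 6, 2 past it). The brighter IKBKE probe set read 248 and 180 in the stimulated and solvent shIKKE line, against 520 and 340 in the control line, while a dimmer one read 280 and 287 against 311 and 218. EGR1, an early response gene, read 18503 and 1035 in the stimulated and solvent shIKKE line, against 23198 and 9953 in the control line, so that the solvent array of the control line already held a high EGR1 signal. Every log2 value below is of the signal plus 14.1 (a pseudocount, the 25th percentile of all signals), which understates changes of dim probe sets. A gene is represented by its brightest probe set, and single arrays give no replicate check and no p-value.

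Most of the brake genes, like most genes, read within 2-fold of their solvent level with stimulation. Of 13717 genes, 11932 were within 2-fold in the shIKKE line and 11794 in the control line. A stricter filter, a highest signal of at least 392, kept 8425 genes, all 10 brake genes among them. Of these, 5.51% were at least 2-fold apart in the shIKKE line and 9.54% in the control line. In the shIKKE line, 0 of 10 were at least 2-fold higher or lower with stimulation, where 10.3% of all genes were higher and 2.68% lower. The 10 differences ran from -0.24 for UBASH3A to 0.40 for PTPN6, with a median log2 difference of -0.10, against -0.01 over all genes. In the control line, 1 of 10 was at least 2-fold higher, DGKZ, and 0 were lower, where 7.57% of all genes were higher and 6.44% lower. The other differences there ran from -0.50 for CBLB to 0.36 for PTPN2, and the median of the 10 was 0.14, against -0.07 over all genes. RNA came from whole cultures, in which a change in the share of expressing cells and a change in RNA per cell cannot be told apart.

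**Figure D1:**
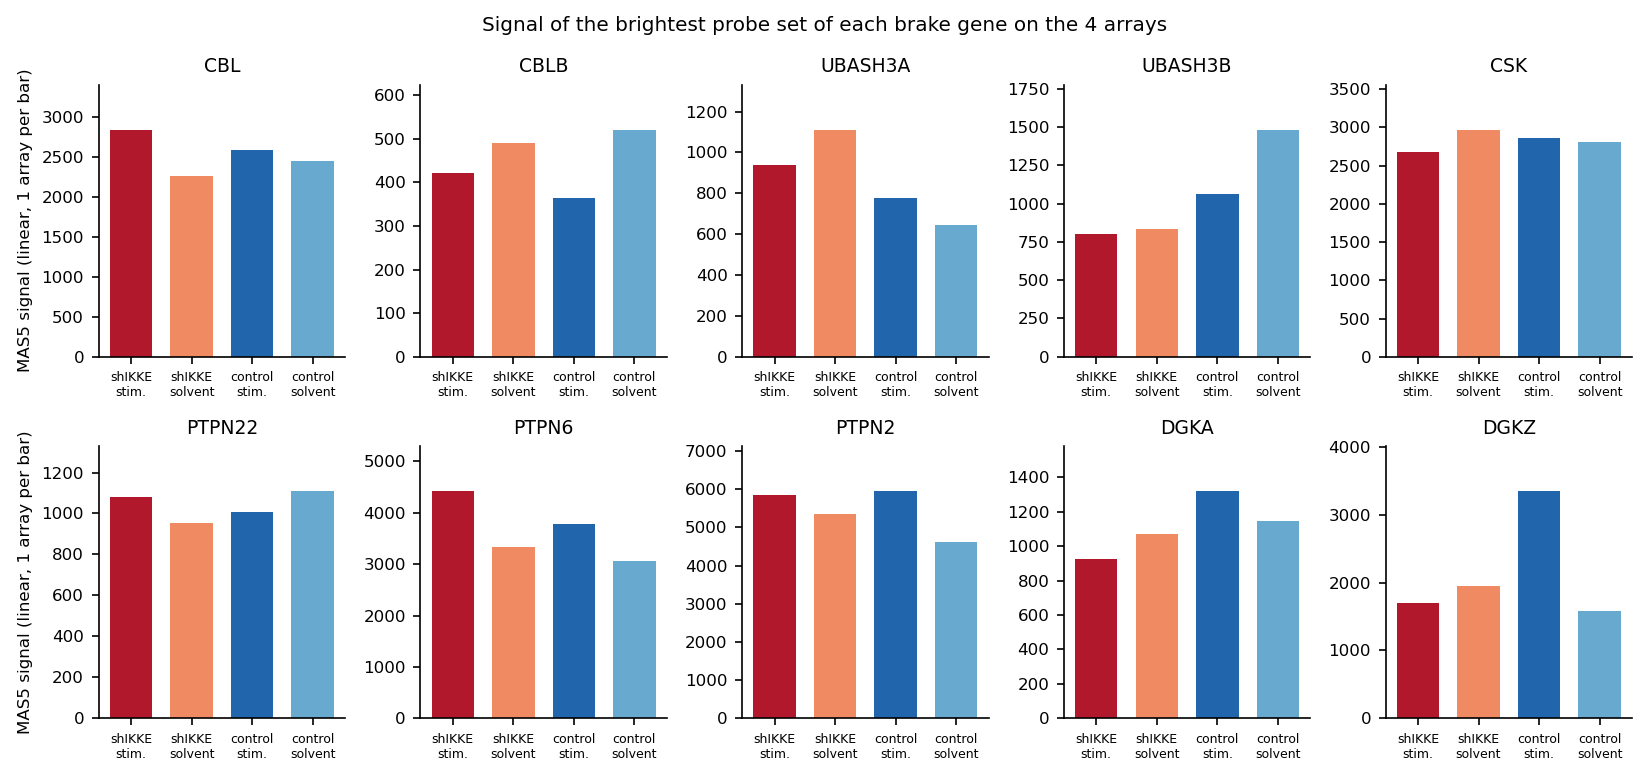
Signal on a linear scale of the brightest probe set of each of the 10 brake genes, 1 bar per array (stimulated and solvent shIKKE line, then stimulated and solvent control line), each panel with its own axis from 0. The bars of CSK lie between 2682 and 2967, while the stimulated control line stands at 3344 for DGKZ with the other arrays between 1584 and 1945.

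**Figure D2:**
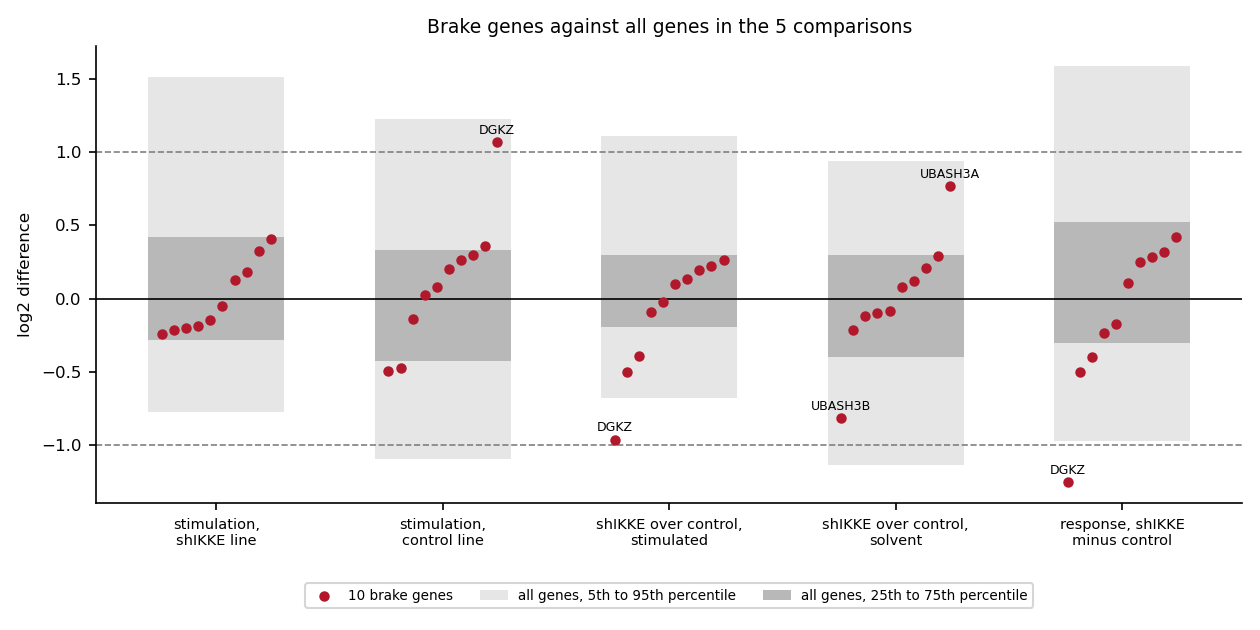
Log2 differences of the 10 brake genes (red points) in 5 comparisons, over bands that hold the 5th to 95th and the 25th to 75th percentile of 13717 genes. Dashed lines mark 2-fold. DGKZ lies beyond a dashed line in 2 comparisons, at 1.07 and -1.26, and no other brake gene does.

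CSK varied least of the 10 across the arrays. It is the cytosolic kinase that keeps LCK and FYN inactive, and its single probe set read 2682 with stimulation and 2967 with solvent in the shIKKE line, against 2856 and 2803 in the control line. The highest array exceeded the lowest by 1.11-fold, and 1.57% of all genes had a smaller log2 range over the 4 arrays (2.6% of the genes whose mean level lay above the median). LCK, its main substrate in T cells, read 19172 and 22251 in the stimulated and solvent shIKKE line and 19919 and 22018 in the control line.

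By their brightest probe sets the phosphatases stayed within 1.5-fold in every comparison of single arrays. PTPN22 encodes a lymphoid phosphatase that binds CSK and acts on LCK and ZAP70. It read 1079.5 and 951 in the stimulated and solvent shIKKE line and 1006 and 1108 in the control line. The lowest value was that of the shIKKE line with solvent. The other PTPN22 probe sets past the filter had that array lowest too, with 866 and 582 in the stimulated and solvent shIKKE line, against 756 and 799.8 in the control line, for the second, and 166 and 109 against 164 and 193 for the third. By all 3 probe sets the shIKKE line with solvent was thus below the control line with solvent, with log2 differences of -0.22, -0.45 and -0.75, and stimulation was above solvent in the shIKKE line (0.18, 0.56 and 0.55) and below it in the control line (-0.14, -0.08 and -0.22). Probe sets of a gene read the same RNA and are not replicates.

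PTPN6, which encodes SHP-1, a phosphatase that inhibitory receptors recruit, read 4415 with stimulation and 3332 with solvent in the shIKKE line, and 3777 and 3065 in the control line. Both stimulated arrays lay above both solvent arrays. The differences were 0.40 and 0.30 on the log2 scale, and averaged over the lines the effect of stimulation was 0.35 ± 0.25 (SE; limma, with terms for line and stimulation, fitted across all genes), with an adjusted p of 0.572.

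PTPN2, which encodes TC-PTP, a phosphatase of LCK, FYN, JAK1 and JAK3, is read by 7 probe sets, of which 5 passed the filter, and these did not all run the same way. The brightest read 5855 and 5358 in the stimulated and solvent shIKKE line and 5944 and 4625 in the control line, and the second read 3620 and 3382 against 3499.5 and 2903. In both, the solvent array of the control line was the lowest. The third read 791 and 525 in the stimulated and solvent shIKKE line, but 554 and 696 in the control line, so its direction with stimulation differed between the lines. Of the dimmer ones, one read 135 and 92.7 in the stimulated and solvent shIKKE line and 169.6 and 50.03 in the control line, a log2 difference with stimulation of 0.48 and 1.52. The other read 140.2 and 77.3 in the stimulated and solvent shIKKE line and 68.8 and 37.2 in the control line, so that both arrays of the shIKKE line lay above both of the control line (line effect 0.86 ± 0.26, SE, log2; limma, adjusted p = 0.724). Tested on their own among 26218 probe sets, these 2 gave average effects of stimulation of 1.001 ± 0.35 and 0.72 ± 0.26 (SE, log2; limma), with adjusted p of 0.314 and 0.317. Of all probe sets, 14.7% had an unadjusted p under 0.05 for stimulation, as these 2 did, and 0% passed.

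The ubiquitin ligases CBL and CBLB mark activated receptors and kinases for degradation, and CBLB in particular sets the need for costimulation. CBL read 2834 with stimulation and 2255 with solvent in the shIKKE line, and 2584 and 2449.5 in the control line. The stimulated array was the higher one in each line, by 0.33 and 0.08 on the log2 scale. The other 4 CBL probe sets, with highest signals of 74.1 to 312, did not share a direction in the shIKKE line, where their differences ran from -0.79 to 0.72. The dimmest read 57.6 and 65.4 in the stimulated and solvent shIKKE line and 74.1 and 10.0 in the control line, and its log2 difference of 1.87 in the control line rests on the low solvent value. CBLB read 421 and 489.8 in the stimulated and solvent shIKKE line, against 365 and 520.2 in the control line. Both stimulated arrays lay below both solvent arrays, with log2 differences of -0.21 and -0.50, and an average effect of -0.35 ± 0.26 (SE; limma, adjusted p = 0.58). A second CBLB probe set read 149 and 93.5 in the shIKKE line and 105 and 149.8 in the control line, and so ran against the first in the shIKKE line.

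With solvent, UBASH3A read higher and UBASH3B lower in the shIKKE line than in the control line. UBASH3A encodes STS-2, a T cell protein that binds CBL, and UBASH3B encodes STS-1, a phosphatase that acts on ZAP70 and SYK. UBASH3A read 936 and 1110.2 in the stimulated and solvent shIKKE line, and 778 and 646 in the control line, so that both arrays of the shIKKE line lay above both of the control line. UBASH3B read 804 and 833.5 in the stimulated and solvent shIKKE line, and 1063 and 1481 in the control line, so that both arrays of the shIKKE line lay below both of the control line. With solvent the log2 difference of the shIKKE line over the control line was 0.77 for UBASH3A (1.70-fold) and -0.82 for UBASH3B, and with stimulation it was 0.26 and -0.40. Averaged over the treatments, the line effect was 0.52 ± 0.27 for UBASH3A (SE; limma, adjusted p = 0.756) and -0.61 ± 0.27 for UBASH3B (SE; limma, adjusted p = 0.697), and neither passed.

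The other 3 UBASH3B probe sets past the filter were also lower in the shIKKE line with solvent, by log2 differences of -0.45, -0.29 and -0.43, but not with stimulation (0.05, 0.18 and 0.32). The second brightest read 559 and 504 in the stimulated and solvent shIKKE line, against 538 and 695 in the control line. By all 4 probe sets the solvent array of the control line was the highest of the 4, and stimulation in the control line was below solvent, by -0.24 to -0.60. UBASH3A has a single probe set. The window from 250 bases before to 50 after the annotated start of UBASH3B (RefSeq, GRCh38.p14, chr11:122655472-122655771, plus strand) is shown because this gene had the largest difference between the lines with solvent. Capitals mark the one motif found in it, the NFAT core GGAAA read on the other strand, at position -30 with the start base as 0.

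UBASH3B start window: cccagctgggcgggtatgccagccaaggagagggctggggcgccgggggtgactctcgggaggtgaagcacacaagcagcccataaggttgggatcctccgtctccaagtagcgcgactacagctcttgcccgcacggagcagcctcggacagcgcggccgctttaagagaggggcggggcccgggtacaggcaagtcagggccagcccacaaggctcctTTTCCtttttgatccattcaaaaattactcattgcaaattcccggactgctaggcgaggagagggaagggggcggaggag

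DGKZ was the one brake gene that reached 2-fold. It encodes the zeta diacylglycerol kinase, which limits diacylglycerol signalling to RAS and protein kinase C in T cells. Its brighter probe set read 1705.5 with stimulation and 1945 with solvent in the shIKKE line, against 3344 and 1584 in the control line. The stimulated control array stood above the other 3, at 1.72 times the next highest. In the control line the stimulated signal was 2.10-fold the solvent signal (log2 1.07), and in the shIKKE line the log2 difference was -0.19. The shIKKE line was below the control line with stimulation (log2 -0.97) and above it with solvent (0.29). The difference of the lines' responses was -1.26, the 1 value past 2-fold among 10, where 4.67% of all genes were at least 2-fold lower and 11.4% at least 2-fold higher by this measure.

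A second DGKZ probe set had signals of at most 71.5, passed the filter on the stimulated shIKKE array alone, and ran the other way. It read 71.5 and 55.1 in the stimulated and solvent shIKKE line and 24.7 and 38.9 in the control line, so that stimulation differed by 0.31 in the shIKKE line and by -0.45 in the control line. With the median over its probe sets standing for each gene, the DGKZ difference with stimulation in the control line was 0.31, and with the other line's solvent array as its baseline it was 0.78. In the shIKKE line the same settings turned the small DGKZ difference of -0.19 to 0.06 and 0.11. The median averages in the dim probe set, and the other baseline brings in the difference of the lines with solvent. Only 1 array carries the high value. Of all genes, 1.78% (244) stood at least 1.5-fold above each of the other 3 arrays on the stimulated control array, and DGKZ was the 1 brake gene among them. The ratio of 5′ over 3′ signal for ACTB, which falls as RNA degrades, was 0.401 on that array, against 0.244 to 0.339 on the others, and the same ratio for GAPDH was 1.06, against 1.04 to 1.17 on the others. Their part in the result was not tested. Averaged over the lines, the effect of stimulation on DGKZ was 0.44 ± 0.38 (SE; limma, adjusted p = 0.64).

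RefSeq lists 3 start windows for DGKZ on chromosome 11 of GRCh38.p14, all on the plus strand, each from 250 bases before to 50 after a start. They are shown because DGKZ was the brake gene past 2-fold, and the probe set annotation does not say which start its transcripts used. The windows lie at chr11:46332676-46332975, chr11:46345017-46345316 and chr11:46347213-46347512. Capitals mark the EGR motif GCGNGGGCG in the first, at position -181, and the NFAT core GGAAA in the second, at position -122.

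DGKZ window 1: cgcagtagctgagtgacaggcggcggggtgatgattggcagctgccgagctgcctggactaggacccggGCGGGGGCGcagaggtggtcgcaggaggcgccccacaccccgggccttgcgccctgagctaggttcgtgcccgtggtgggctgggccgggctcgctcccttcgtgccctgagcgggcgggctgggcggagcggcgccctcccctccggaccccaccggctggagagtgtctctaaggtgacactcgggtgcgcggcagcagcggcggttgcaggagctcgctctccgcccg

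DGKZ window 2: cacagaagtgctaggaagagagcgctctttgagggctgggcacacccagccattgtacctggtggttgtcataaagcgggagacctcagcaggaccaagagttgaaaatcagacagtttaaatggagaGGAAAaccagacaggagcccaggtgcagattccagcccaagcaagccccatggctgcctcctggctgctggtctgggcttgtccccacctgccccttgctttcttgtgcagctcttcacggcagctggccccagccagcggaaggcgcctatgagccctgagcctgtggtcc

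DGKZ window 3: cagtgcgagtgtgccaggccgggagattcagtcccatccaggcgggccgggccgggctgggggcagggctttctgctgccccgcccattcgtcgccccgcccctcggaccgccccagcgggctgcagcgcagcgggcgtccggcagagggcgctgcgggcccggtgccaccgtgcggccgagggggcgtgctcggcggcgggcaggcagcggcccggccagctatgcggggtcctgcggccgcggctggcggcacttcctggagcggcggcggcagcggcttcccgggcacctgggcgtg

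Both strands were searched for 4 motifs: GGAAA (NFAT), TGANTCA (AP-1), the NF-κB consensus (given by name, it can overlap GGAAA) and GCGNGGGCG (EGR). Of the 10 brake genes, 8 had start windows in the table, 19 in all. GGAAA was found in 8 of the 19 (42.1%), against 61.2% of all 35116 windows of the same length. The AP-1 motif was found in 0 (7.71% of all windows), the NF-κB motif in 1 (5.26%, against 1.61%), in PTPN2, and the EGR motif in 3 (15.8%, against 9.43%), in CBLB, DGKA and DGKZ. Windows of a gene can overlap, and a match or its absence in 300 bases describes these letters alone.

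DGKA encodes the alpha diacylglycerol kinase, which is high in resting T cells and works beside the zeta kinase. It read 928 with stimulation and 1069 with solvent in the shIKKE line, and 1319 and 1147 in the control line. As for DGKZ, the stimulated control array was the highest, here at 1.15 times the next. A second probe set read 162 and 181 in the stimulated and solvent shIKKE line and 235 and 166 in the control line, with the same array highest. The shIKKE line was below the control line with stimulation by both probe sets, at -0.50 on the log2 scale in each. Averaged over the treatments the line effect was -0.30 ± 0.26 (SE; limma, adjusted p = 0.858).

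**Figure D3:**
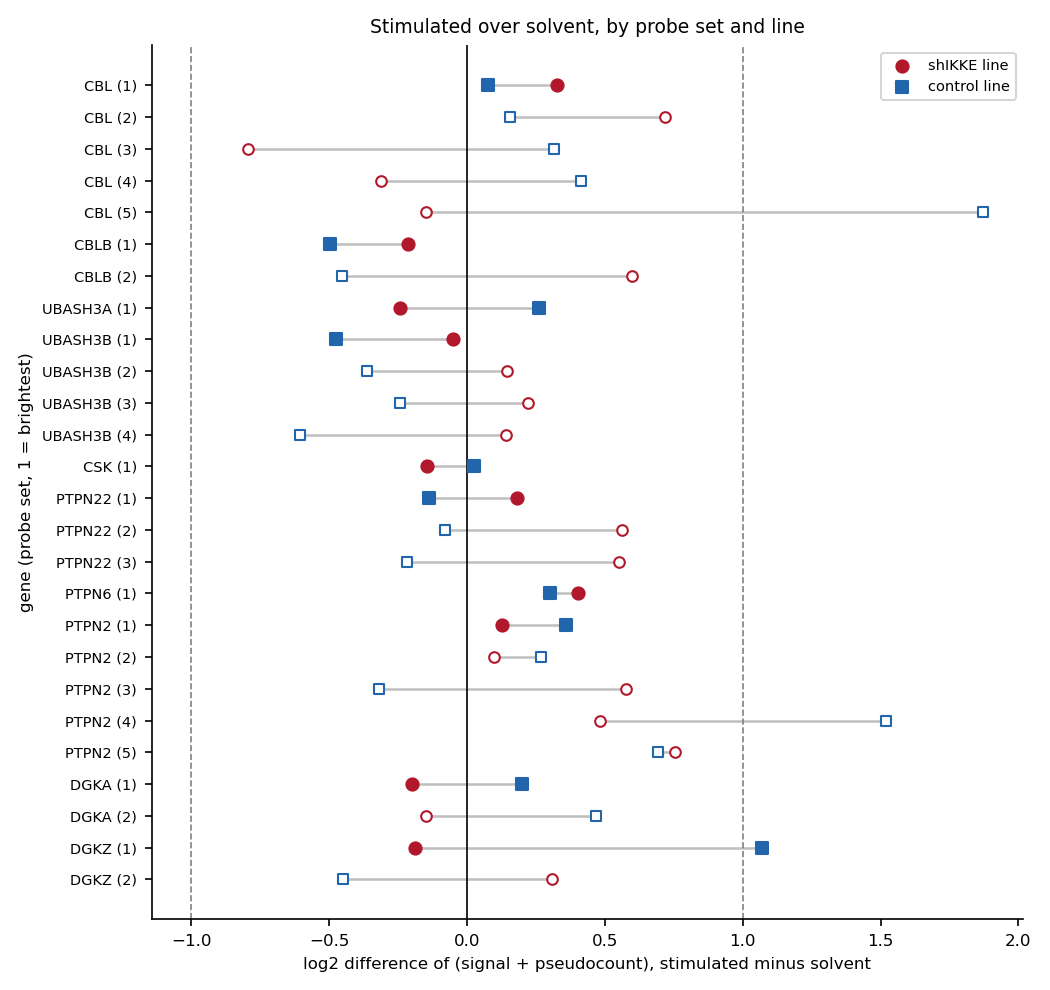
Log2 difference of stimulated over solvent for the 26 probe sets past the filter, in the shIKKE line (red circles) and the control line (blue squares), with a grey line joining them and filled symbols for the brightest probe set of a gene. Dashed lines mark 2-fold. In the control line 3 probe sets lie past it, the brightest of DGKZ and dim ones of CBL and PTPN2, and in the shIKKE line none does.

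Counted by probe set, 0 of 26 were at least 2-fold either way with stimulation in the shIKKE line, where 11.4% of all probe sets past the filter were higher and 3.17% lower. In the control line 3 of 26 were higher and 0 lower, where 10.1% of all were higher and 6.38% lower. Of these 3, those of CBL and PTPN2 had highest signals of 74.1 and 169.6, against 3344 for that of DGKZ. For the difference of the lines' responses, 1 of 26 was at least 2-fold higher and 4 lower, where 11.2% of all were higher and 6.45% lower. The 1 was the second CBLB probe set, and the 4 were the brighter DGKZ probe set, a dim one of PTPN2 and a pair of CBL.

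The shIKKE line was then set against the control line. With stimulation 0 of 10 brake genes were at least 2-fold apart, where 5.99% of all genes were higher and 2.37% lower in the shIKKE line, and the nearest was DGKZ at -0.97. With solvent 0 of 10 were, where 4.34% were higher and 6.68% lower, and UBASH3B (-0.82) and UBASH3A (0.77) lay outermost. The medians of the 10 were 0.04 with stimulation and -0.0015 with solvent, against 0.03 and -0.05 over all genes. By probe set, 1 of 26 was at least 2-fold higher with stimulation (5.65% of all), the dim one of DGKZ, and 1 of 26 with solvent (5.26%), the dimmest of CBL. In both, 0 were lower (2.73% and 6.4%). The DGKZ probe set passed the filter through the stimulated shIKKE array alone (71.5), so the filter itself favoured this call. At a lower threshold of 1.5-fold, chosen after the values were seen, 1 of 10 genes differed between the lines with stimulation, DGKZ, which was lower, as were 6.78% of all genes, while 12.8% were higher. With solvent 2 did, UBASH3A higher and UBASH3B lower, where 12% of all genes were higher and 16.5% lower. One array, the control line with solvent, enters both the solvent comparison and the response of the control line, so these values are not independent.

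**Figure D4:**
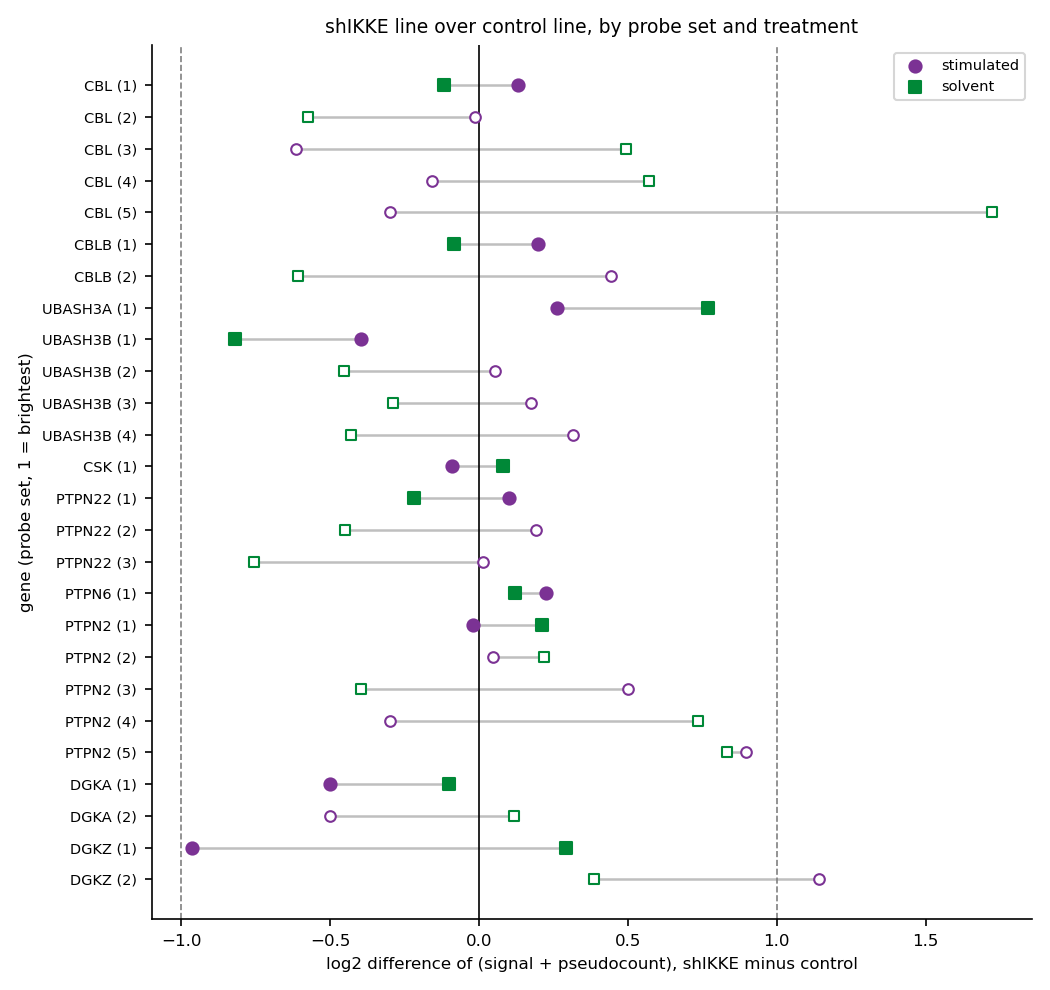
Log2 difference of the shIKKE line over the control line for the 26 probe sets past the filter, with stimulation (purple circles) and with solvent (green squares), filled for the brightest probe set of a gene and with dashed lines at 2-fold. The 4 UBASH3B and 3 PTPN22 probe sets lie below 0 with solvent, and the 2 DGKZ probe sets lie on opposite sides of 0 with stimulation.

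Across the 4 arrays the brake genes had log2 ranges of 0.15 (CSK) to 1.07 (DGKZ), with a median of 0.50, against 0.72 over all genes and 0.54 over the 6858 genes with a mean level above the median, to which all but CBLB belong. In the additive limma fit, 0 of 10 passed for stimulation (adjusted p from 0.572 to 0.999), 0 had an unadjusted p under 0.05, and 1 of all genes (0.00729%) passed. For the line, 0 of 10 passed (adjusted p from 0.697 to 0.999), 0 had an unadjusted p under 0.05, and 0% of all genes passed. Unadjusted, 13.8% of all genes for stimulation and 7.29% for the line had a p under 0.05. With 4 arrays and no replicates the fit keeps 1 residual degree of freedom, taken up by how the responses of the lines differ, so a p above the threshold does not show that a gene did not differ. Fitted per probe set, 0% of all passed for the line and 6.68% had an unadjusted p under 0.05.

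A chosen list of further pathway genes, called other brakes here, included genes with larger differences. The list also holds genes that are not plain brakes, such as TRAT1, which stabilises the receptor at the surface. Of 42 other brakes listed, 37 were measured, and with stimulation 9 were at least 2-fold higher and 0 lower in the shIKKE line, and 3 were higher and 4 lower in the control line. Over all genes these shares were 10.3% and 2.68% in the shIKKE line and 7.57% and 6.44% in the control line. Among the 9, DGKG passed the filter on the stimulated arrays alone (82.8 and 78.3). NF1, among both the 9 and the 4, passed on the solvent array of the control line alone (208). The filter itself thus favoured the DGKG call and the NF1 call in the control line. The medians of the 37 were 0.24 and 0.07, against -0.01 and -0.07 over all genes. PTPRE, a receptor-type phosphatase, read 3163 and 326.5 in the stimulated and solvent shIKKE line, against 4532.5 and 724 in the control line (log2 3.22 and 2.62). DGKH, the eta diacylglycerol kinase, read 1678 and 502 in the stimulated and solvent shIKKE line and 2094 and 838 in the control line (log2 1.71 and 1.31). Of these 3 diacylglycerol kinases, DGKH was at least 2-fold higher in both lines, DGKA in neither, and DGKZ in the control line. PTPN7, a phosphatase of ERK in lymphocytes, read 7999 and 3354 in the stimulated and solvent shIKKE line and 7012 and 2181 in the control line (log2 1.25 and 1.68). SH2D2A, an LCK-binding adaptor, gave 1.64 and 0.91, and HDAC7, a histone deacetylase of thymocytes, 1.57 and 0.33. NF1, a RAS inhibitor, gave 1.02 and -2.20 by a dim probe set that read 49.7 and 17.3 in the stimulated and solvent shIKKE line and 34.4 and 208 in the control line. In the limma fit 0 of 37 passed for stimulation and 7 had an unadjusted p under 0.05, as 13.8% of all genes did, with PTPRE lowest (2.92, adjusted p = 0.0826).

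Between the lines, 4 of these 37 were at least 2-fold lower and 0 higher in the shIKKE line with solvent, where 6.68% of all genes were lower and 4.34% higher. The median of the 37 was -0.32, against -0.05 over all genes. The 4 lower genes were NF1 (-2.82), HDAC7 (-1.13), PTPRE (-1.12) and LAIR1 (-1.09), an inhibitory collagen receptor. All 4 comparisons hold the solvent array of the control line. NF1 passed the filter by a dim probe set on that array alone (208, against at most 49.7 on the others), so the filter itself favoured its call. With stimulation 1 was higher, SLA (1.04), an adaptor that promotes receptor degradation, and 0 were lower, where 5.99% of all genes were higher and 2.37% lower, with a median of -0.05, against 0.03 over all genes. TRAT1, which stabilises the receptor at the surface, was at -0.78, CBLC, a CBL relative of epithelia, at 0.80 by a dim probe set, and PELI1, a ubiquitin ligase, at 0.77. For the line, 0 of 37 passed in limma and 4 had an unadjusted p under 0.05, as 7.29% of all genes did.

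Of 26 substrates and targets of the brakes, 25 were measured. By brightest probe sets, 1 was at least 2-fold higher and 1 lower with stimulation in the shIKKE line, and 2 higher and 1 lower in the control line. The shares over all genes were 10.3% and 2.68% in the shIKKE line and 7.57% and 6.44% in the control line. LCP2 read 3915 and 988 in the stimulated and solvent shIKKE line and 2889 and 1356 in the control line (log2 1.97 and 1.08). LAT gave 0.67 and 1.44, with 10071 on the stimulated control array, its highest of 4 like that of DGKZ. PRKCQ, encoding the protein kinase C theta that diacylglycerol and PMA activate, gave -1.15 and -1.24. PIK3R1, a phosphoinositide 3-kinase subunit bound by CBL, gave -0.92 and -0.52, PLCG1 -0.67 and -0.62, and JAK3 0.65 and 0.895. Between the lines 0 of 25 were at least 2-fold apart in either treatment. The widest were CD28 (-0.99) and STAT5B (-0.92) with solvent and STAT5A (-0.73) and LAT (-0.63) with stimulation. For stimulation, limma passed 0 of 25, with 5 at an unadjusted p under 0.05 (13.8% of all genes), and for the line 0, with 1 unadjusted (7.29% of all genes).

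**Figure D5:**
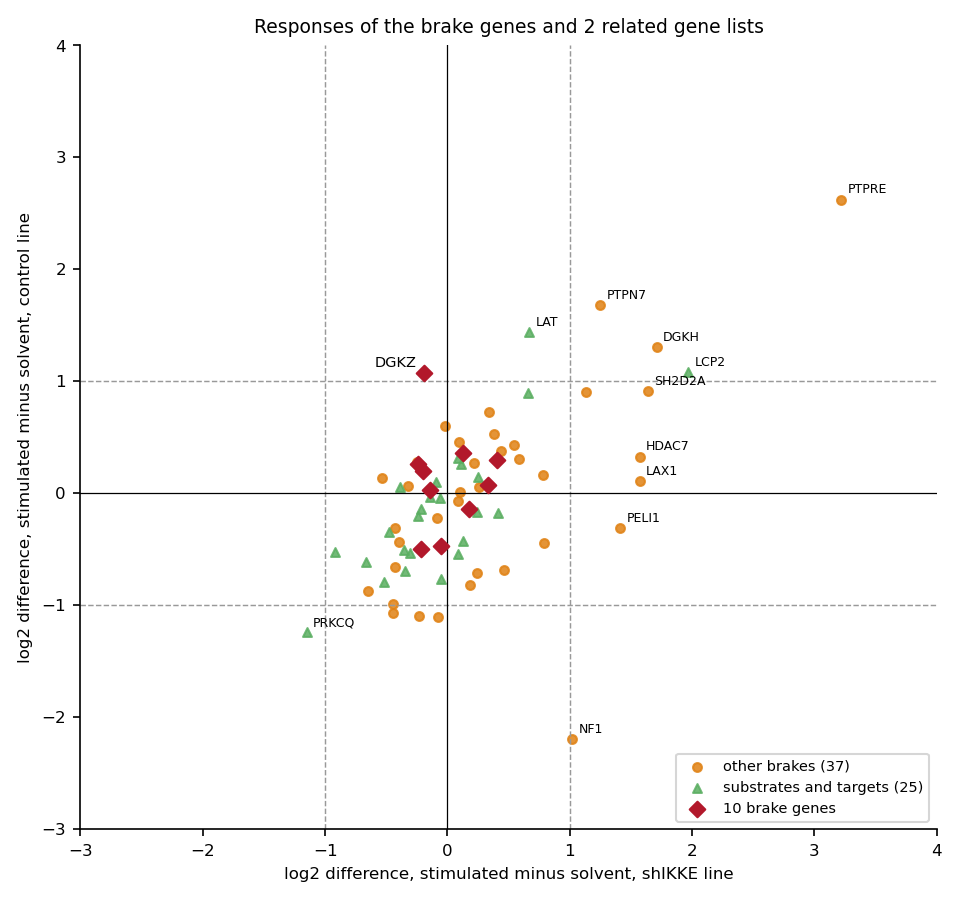
Log2 difference with stimulation in the shIKKE line (horizontal) and the control line (vertical), which share no array, for the 10 brake genes (red), 37 other brakes (orange) and 25 substrates and targets (green), with dashed lines at 2-fold. The brake genes lie within 2-fold except DGKZ in the control line, while PTPRE, PTPN7, DGKH and LCP2 lie past it in both lines.

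The genes whose pattern over the 4 arrays was most like that of DGKZ, the brake gene with the widest range, were found by the root mean square distance between centred log2 values, over 4 arrays. They were LINC01704 (distance 0.08), TBRG4 (0.08), HIPK4 (0.08), KRT3 (0.08) and IPPK (0.09). TBRG4 read 240.1 and 257 in the stimulated and solvent shIKKE line and 417 and 220.03 in the control line, and IPPK read 311 and 344 against 526 and 262, while LINC01704, HIPK4 and KRT3 had signals of at most 196. The likeness rests on 4 arrays and describes these alone.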

How the data were processed

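Total RNA of 4 Jurkat samples was measured on 4 single-colour oligonucleotide arrays with biotin label, 1 per group, and groups were taken from the sample titles. Per the submitters' processing notes the deposited values are MAS5 signals, a linear intensity for each probe set; the version and scaling target are not given here. Trimmed by 2% at both ends, the signals of every array averaged 500.07, and the median signal ranged from 48.8 to 69.1, higher on both stimulated arrays. Of the 54675 probe sets, 62 are controls and were left out, 41091 have 1 gene symbol in the platform annotation, 1801 several and the rest none. Of the columns, 0 were left out.

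Signals were log2 transformed after adding 14.1. Probe sets were kept whose highest signal was at least 56.4, the overall median, so that 26218 probe sets and 13717 genes remained, and the probe set of highest mean log2 value stood for its gene. A gene was counted where 2 arrays differed at least 2-fold, with no test. Average effects of line and stimulation came from an additive model in limma 3.58.1 (R 4.3.3). The p-values were two-sided and adjusted by Benjamini-Hochberg over all genes, with a threshold of 0.05. The fit was also run on simulated data in which both lines had the same response to stimulation, so that run does not test the p-values given here. Start windows came from RefSeq and were searched in Python 3.11.15; plots used matplotlib 3.10.9. Alternatives changed the pseudocount, filter, normalization, gene representative, baseline, variance prior, fold threshold and the unit tested, and the last 2 were added after the values were seen.

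The brake genes and lists were chosen with earlier results of these data known. All brake genes are named, with up to 4 genes of largest difference per list and comparison (other brakes, substrates and targets), the 5 genes most like the brake gene of widest range, and IKBKE and EGR1 as checks. LCK, DGKA and LAT were set beside other genes after their values were seen.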

Additional observations from a re-analysis of the deposited data

Results flagged for a closer look

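DGKZ is picked out because its brighter probe set lay above solvent with stimulation in the control line and slightly below it in the shIKKE line, with a difference of responses past 2-fold. It read 1705.5 with stimulation and 1945 with solvent in the shIKKE line, against 3344 and 1584 in the control line, so the response of the shIKKE line minus that of the control line was -1.26 on the log2 scale. With 1 array per group this difference was not tested, and the dimmer DGKZ probe set gave 0.76. The value below 0 in the shIKKE line, -0.19, was within the range of the housekeeping genes there (-0.40 to -0.07), and it was 0.11 against the other line's solvent array and 0.06 with the median over probe sets. The 0.11 also holds the difference of the lines with solvent (0.29), and the 0.06 averages in the dimmer probe set. No group held enough arrays to look for a sample apart from its replicates.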

How the results depend on the processing

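The count of brake genes at least 2-fold apart with stimulation in the control line was 1 (DGKZ), where 14% of all genes were. It became 0 when the median over probe sets stood for each gene (DGKZ at 0.31, 14% of all genes called). It was also 0 against the other line's solvent array (0.78, 12.4% of all genes called). The count for the difference of the lines' responses was 1 and became 0 with the median over probe sets (DGKZ at -0.25), where 16% and 16.7% of all genes were called. At 1.5-fold, the counts between the lines became 1 with stimulation and 2 with solvent, where 19.5% and 28.5% of all genes were called. At 2-fold they were 0 and 0, with 8.36% and 11% of all genes called. DGKZ has 2 probe sets past the filter, so its median is the mean of the bright one and the dim one, which ran the other way. The other line's solvent array brings the DGKZ difference of the lines with solvent (0.29) into the value. The 1.5-fold counts differ through the threshold alone. What underlies the opposite direction of the 2 probe sets was not tested. Under no or a 4-fold pseudocount, no or a stricter filter (392), quantile or cyclic loess normalization, these counts kept their values, with DGKZ the gene called each time. The share of all genes called in these settings ran from 7.12% to 17.9% for stimulation in the control line. For the difference of the lines' responses it ran from 6.34% to 20.6%. Of 255 values of single brake genes that an alternative changed at all (a filter cannot), 252 stayed on their side of 2-fold, 3 (all DGKZ) moved to within it and 0 changed sign while past it.

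For limma, 0 brake genes passed for either effect under the 9 alternatives run, while the count over all genes for stimulation was 1 and ranged from 0 to 1044. It was 573 with the larger pseudocount, 577 with the stricter filter and 1044 with the prior variance following the level, where the lowest adjusted p of a brake gene was 0.28 for stimulation (DGKZ) and 0.273 for the line (UBASH3B). In that last setting 2 brake genes, UBASH3B and UBASH3A (limma, adjusted p = 0.451), were under 0.05 unadjusted for the line, where 0 were in the reported fit. The share of all genes under 0.05 unadjusted in that setting is not given here, so the 2 cannot be set against it. For the line these settings gave 39, 49 and 232 genes, against 0. Among all genes past 2-fold with stimulation, 79.4% were higher in the shIKKE line and 54% in the control line, against 59.6% and 42.8% after quantile and 62.1% and 45% after cyclic loess normalization. No paired analysis was possible because the labels give no replicate numbers and each group has 1 array; the line itself is a term of the limma fit. The number of arrays limits the precision of every value.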

Other observations

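Further probe sets, which read the same RNA, ran with the brightest one for some genes of larger response and not for others. A second PTPN7 probe set read 1349 and 259 in the stimulated and solvent shIKKE line and 1117 and 220.5 in the control line. A second PTPRE probe set read 222 and 28.5 in the stimulated and solvent shIKKE line and 236 and 53.6 in the control line. The other 4 DGKH probe sets past the filter were higher with stimulation in both lines, by log2 differences of 0.81 to 2.39 in the shIKKE line and 0.05 to 1.98 in the control line. HDAC7 had a dim second probe set at 1.38 in the shIKKE line and -1.57 in the control line, against 1.57 and 0.33 by the brightest. SH2D2A and NF1 had 1 probe set each past the filter. LCP2, a target of the brakes, had 5 probe sets past the filter. Their differences were 1.40 to 1.97 in the shIKKE line and 1.05 to 2.325 in the control line. For PELI1 the probe sets did not share a direction in the control line, at -0.31 by the brightest and 1.32 and 1.56 by dimmer ones. FYN, a substrate counted within 2-fold, was at 0.41 in the shIKKE line and -0.17 in the control line by its brightest probe set. By a dimmer one it was at 3.82 and 3.53, and by another at 4.75 and 3.63. The remaining FYN probe sets past the filter were at 0.68 and 0.62, and at 0.73 and 0.15.

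Of 12 housekeeping genes listed, 10 were measured and 0 were at least 2-fold apart in any of the 5 comparisons, with a median log2 difference with stimulation of -0.26 in the shIKKE line and -0.01 in the control line. In the shIKKE line 10 of 10 were lower with stimulation, from -0.40 for ACTB to -0.07 for YWHAZ, so the differences of several brake genes in that line, such as -0.24 for UBASH3A, -0.20 for DGKA and -0.19 for DGKZ, lay within the range of these genes.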
